A study of Mus musculus with 9 samples.

Results

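The genes described here encode the subunits of the receptors for interleukin 12 (IL-12) and interleukin 18 (IL-18), *Il12rb1*, *Il12rb2*, *Il18r1* and *Il18rap*, and the transcription factor *Stat4*. They were chosen by name, and all 5 were among the 21883 genes of the deposited expression table. RNA was sequenced from invariant natural killer T (iNKT) cells, T cells with a semi-invariant receptor that recognises lipids on CD1d, sorted from the thymus of C57BL/6 mice. There were 3 groups of 3 libraries: stage 2 cells and stage 3 cells of wild-type (WT) mice, and stage 2 cells of *Med23*-deficient mice. The WT mice were 6 weeks old, and no age was given for the *Med23*-deficient mice in the labels. *Med23*, a subunit of the Mediator complex of RNA polymerase II, was deleted by a Cre transgene under a *Cd4* promoter, which acts from the double-positive thymocyte stage onwards, so conventional T cells of these mice lack it too. Stage 2 and stage 3 cells differ by the surface marker NK1.1, which is gained at stage 3. *Klrb1c*, the gene of NK1.1, was thus used for the sort.

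Levels are in FPKM, which divides the fragments assigned to a gene by its transcript length and by the size of the library. The table gave no counts, so the depth of the libraries is unknown. The number of genes with a value over 0 ranged from 15584 to 17333 per library. *Gm23935*, a short non-coding gene model, made up from 62.2% to 71.9% of a library's total FPKM. *Med23* had levels of 5.51, 5.15 and 6.74 FPKM in WT stage 2 (replicates 1, 2 and 3, as in every series of 3 values here). In the *Med23*-deficient libraries it had 4.8, 3.6 and 3.92 FPKM, all below WT stage 2. The WT stage 3 libraries held 7.14, 4.44 and 6.12 FPKM of *Med23*, which overlap the *Med23*-deficient values. The table has 1 value per gene and does not resolve exons. Summed FPKM of 9 iNKT identity genes (among them *Zbtb16* and the CD3 genes) lay between 732 and 1170 in all 9 libraries, and the B cell, myeloid and erythroid markers in the table summed to at most 2.33 FPKM for any list. The study's methods speak of independent experiments for these data, but nothing in the labels ties a library to an experiment or an animal, so p-values measure the spread between these samples, which may be technical in part.

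The IL-12 receptor pairs IL-12Rβ1, which the IL-23 receptor also uses, with IL-12Rβ2, which recruits the kinase JAK2 and the transcription factor STAT4, while TYK2 sits on IL-12Rβ1. The IL-18 receptor pairs the ligand-binding chain encoded by *Il18r1* with the accessory chain encoded by *Il18rap* and signals through the adaptor MyD88 to NF-κB and p38. Together IL-12 and IL-18 make T helper 1 cells, NK cells and iNKT cells release interferon γ without engagement of their antigen receptor.

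RefSeq promoter sequences (GRCm38.p6, the mm10 assembly, 250 bases before to 50 after the start) matched 4 of the 5 genes. *Il18r1* had 3 RefSeq promoters and *Stat4* had 2, of which only the 1 at the gene start given in the deposited data was used. Those of the 3 genes that passed the adjusted test in some comparison are shown, 5′ to 3′ on the strand of the gene, to let the sequence upstream of genes with different changes be compared. Capitals mark a match to a searched motif. *Il12rb2* lies on the minus strand at chr6:67376139-67376438, *Il18rap* on the plus strand at chr1:40515112-40515411 and *Stat4* on the plus strand at chr1:51986898-51987197.
Il12rb2: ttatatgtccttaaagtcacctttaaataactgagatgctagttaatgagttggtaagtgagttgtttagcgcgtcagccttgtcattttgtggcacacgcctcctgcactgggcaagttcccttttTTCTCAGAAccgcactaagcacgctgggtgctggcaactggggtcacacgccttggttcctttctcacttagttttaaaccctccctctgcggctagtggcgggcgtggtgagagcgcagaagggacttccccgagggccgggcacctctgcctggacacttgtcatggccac
Il18rap: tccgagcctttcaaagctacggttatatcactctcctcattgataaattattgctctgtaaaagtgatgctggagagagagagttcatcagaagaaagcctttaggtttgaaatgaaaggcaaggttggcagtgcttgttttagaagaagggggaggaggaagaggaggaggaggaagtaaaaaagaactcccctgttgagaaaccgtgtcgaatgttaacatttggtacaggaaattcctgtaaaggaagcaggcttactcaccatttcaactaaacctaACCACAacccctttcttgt
Stat4: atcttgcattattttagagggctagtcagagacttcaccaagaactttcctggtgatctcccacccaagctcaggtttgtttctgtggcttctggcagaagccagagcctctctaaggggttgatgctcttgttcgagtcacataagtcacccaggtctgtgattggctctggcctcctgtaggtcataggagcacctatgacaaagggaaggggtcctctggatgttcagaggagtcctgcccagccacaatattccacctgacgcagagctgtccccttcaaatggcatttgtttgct
Motifs were searched on both strands. The *Il12rb2* promoter held 1 STAT element (TTCNNNGAA, which reads TTCTCAGAA here) starting 123 bases before the start, and 8.3% of the 32851 promoters searched hold this motif. The *Il18rap* promoter held 1 RUNX element (TGTGGT, here on the opposite strand as ACCACA), its first base lying 31 bases after the first base of the gene. That motif is in 16.8% of all promoters. The AP-1 element TGANTCA (7.81% of promoters) and the T-box half-site GGTGTGA (3.98%) were not found in any of the 4. The promoters used for *Stat4* and *Il18r1* held none of the 4 motifs, and the other RefSeq promoters of these genes are not described here. The motifs do not overlap each other in these sequences, and a match or its absence is a description of these letters alone.

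**Figure D1:**
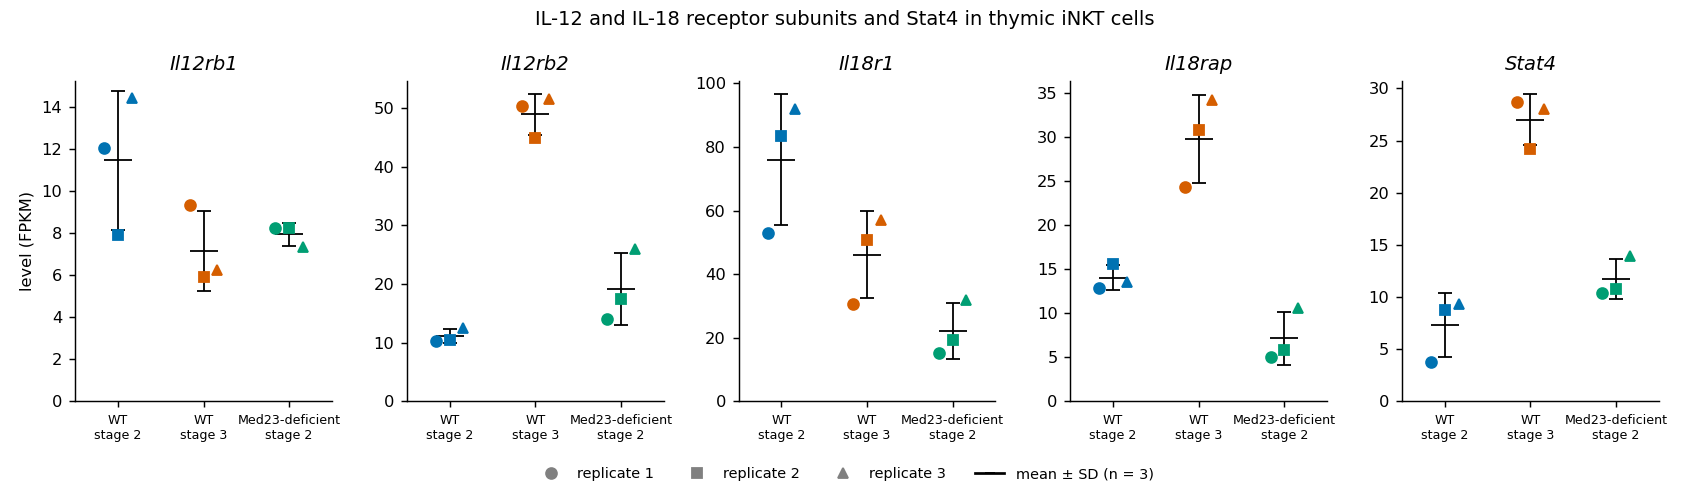
FPKM of each gene in the 9 libraries, by group. Symbols are single libraries, and bars give the mean and SD of 3 libraries. *Il12rb2*, *Il18rap* and *Stat4* were higher in each WT stage 3 library than in any other library, *Il18rap* was lowest in *Med23*-deficient stage 2, and *Il12rb1* overlapped between all groups.

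*Il12rb2* (ENSMUSG00000018341, chromosome 6, 67291318 to 67376188, mm10, minus strand), the signalling subunit that makes a cell responsive to IL-12, showed the clearest difference between the WT stages. Its levels were 10.27, 10.5 and 12.43 FPKM in WT stage 2, 50.32, 44.96 and 51.61 FPKM in WT stage 3, and 13.96, 17.38 and 25.9 FPKM in *Med23*-deficient stage 2. No library of a group overlapped another group, and the *Med23*-deficient libraries lay between the WT stages. The mean rose 4.42-fold, from 11.1 ± 1.19 FPKM for WT stage 2 to 49.0 ± 3.53 FPKM for WT stage 3 (SD, n = 3 each), a difference of 2.05 in log2(FPKM + 1) (standard error 0.11, 95% confidence interval 1.78 to 2.32, limma adjusted p = 0.00368). By p it ranked 6 of 20689 genes tested. Leaving out any 1 of the 6 libraries kept the adjusted p between 0.019 and 0.0312. The 346 calls over all genes in this comparison became 22 to 137 in these fits. At 19.1 ± 6.15 FPKM (SD, n = 3), *Med23*-deficient stage 2 differed from WT stage 2 by 0.70 in log2(FPKM + 1) (standard error 0.23, interval 0.14 to 1.25), and this did not pass the adjusted test (adjusted p = 0.394, unadjusted p = 0.0221). Against WT stage 3 it was lower by 2.57-fold, a log2 difference of -1.36 (standard error 0.22, interval -1.89 to -0.82), with an adjusted p = 0.0557 that became 0.0278 without *Med23*-deficient replicate 3, the library with the highest level in its group. Without any 1 of the other 5 libraries it lay between 0.107 and 0.195. The 278 calls over all genes against WT stage 3 became 72 to 174 with a library left out. The 3′ end of *Il12rb2* shares 6419 bases with *Serbp1* on the opposite strand, and the sources used here do not say whether the stranded libraries were quantified by strand. *Serbp1* was at 19.2, 18.7 and 15.2 FPKM on average in the 2 WT stages and in *Med23*-deficient stage 2, without the difference seen between the WT stages of *Il12rb2*.

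*Il12rb1* (ENSMUSG00000000791, chromosome 8, 70808449 to 70821424, plus strand), the subunit shared with the IL-23 receptor, did not pass the test in any comparison. Its levels were 12.07, 7.91 and 14.42 FPKM in WT stage 2, 9.34, 5.9 and 6.22 FPKM in WT stage 3, and 8.23, 8.26 and 7.32 FPKM in *Med23*-deficient stage 2. All 3 groups overlapped, with WT stage 2 holding the highest and the most scattered values. The log2 difference was -0.60 between the WT stages (interval -1.24 to 0.04, adjusted p = 0.412) and -0.45 between the genotypes at stage 2 (interval -0.98 to 0.09, adjusted p = 0.602). It was 0.16 when *Med23*-deficient stage 2 was set against WT stage 3 (interval -0.31 to 0.62, adjusted p = 0.801).

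*Il18r1* (ENSMUSG00000026070, chromosome 1, 40465552 to 40500854, plus strand), the ligand-binding chain of the IL-18 receptor, was the most abundant of the 5 genes in every stage 2 library of either genotype. Its levels were 52.83, 83.36 and 91.92 FPKM in WT stage 2, 30.61, 50.82 and 57.01 FPKM in WT stage 3, and 15.07, 19.36 and 31.93 FPKM in *Med23*-deficient stage 2. Each *Med23*-deficient library lay below each WT stage 2 library, whereas the WT stages overlapped, and *Med23*-deficient replicate 3 overlapped WT stage 3 replicate 1. The means were 76.0 ± 20.5 FPKM for WT and 22.1 ± 8.76 FPKM for *Med23*-deficient stage 2 (SD, n = 3 each), 3.44-fold lower in the latter. This log2 difference of -1.76 (standard error 0.32, interval -2.55 to -0.98) passed a fold of 2 with an unadjusted limma p of 0.05 (unadjusted p = 0.00146). It did not pass the adjusted test (limma adjusted p = 0.135). A fit to those genes alone whose mean FPKM was 1 or more gave an adjusted p = 0.0396. Against WT stage 3, at 46.1 ± 13.8 FPKM (SD, n = 3), *Med23*-deficient stage 2 differed by -1.05 (interval -1.87 to -0.22, adjusted p = 0.333). WT stage 3 differed from WT stage 2 by -0.72 (interval -1.45 to 0.02, adjusted p = 0.397). With the groups ordered by level (WT stage 2, then WT stage 3, then *Med23*-deficient stage 2), no difference between neighbouring groups passed the adjusted test. In every group the level rose from replicate 1 to replicate 3. A limma fit with the replicate number as a block gave unadjusted p = 0.000438 between the WT stages (adjusted p = 0.0935). It gave 0.000128 between the genotypes at stage 2 (adjusted p = 0.162) and 0.00103 against WT stage 3 (adjusted p = 0.118).

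*Il18rap* (ENSMUSG00000026068, chromosome 1, 40515362 to 40551705, plus strand), the accessory chain without which the IL-18 receptor does not signal, starts 14507 bases after the end of *Il18r1* and is read in the same direction. Its levels were 12.88, 15.61 and 13.52 FPKM in WT stage 2, 24.34, 30.83 and 34.25 FPKM in WT stage 3, and 4.99, 5.83 and 10.58 FPKM in *Med23*-deficient stage 2. No groups overlapped, with WT stage 3 highest and *Med23*-deficient stage 2 lowest. From WT stage 2 (14.0 ± 1.43 FPKM, SD, n = 3) to WT stage 3 (29.8 ± 5.03 FPKM, SD, n = 3) the mean rose 2.13-fold, a log2 difference of 1.03 (standard error 0.15, interval 0.66 to 1.40, limma adjusted p = 0.0412). This call was lost when any 1 of the 6 libraries was left out, with adjusted p between 0.0589 (WT stage 3 replicate 1 left out) and 0.132 (WT stage 3 replicate 2 left out). Most calls over all genes were lost in these fits too, as 346 became 22 to 137. At 7.13 ± 3.01 FPKM (SD, n = 3), *Med23*-deficient stage 2 was 4.18-fold lower than WT stage 3, a log2 difference of -1.97 (standard error 0.28, interval -2.64 to -1.30, adjusted p = 0.0372). Without *Med23*-deficient replicate 3 that adjusted p was 0.0271, and without any 1 of the other 5 libraries it lay between 0.0888 and 0.143. Against WT stage 2 the *Med23*-deficient level was 1.96-fold lower, a log2 difference of -0.94 (standard error 0.26, interval -1.58 to -0.30) that did not pass the adjusted test (adjusted p = 0.305, unadjusted p = 0.0116).

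*Stat4* (ENSMUSG00000062939, chromosome 1, 51987148 to 52107189, plus strand), the transcription factor activated by the IL-12 receptor, had levels of 3.76, 8.79 and 9.35 FPKM in WT stage 2, 28.7, 24.2 and 28.06 FPKM in WT stage 3, and 10.41, 10.76 and 13.92 FPKM in *Med23*-deficient stage 2. No groups overlapped, although WT stage 2 replicate 3 and *Med23*-deficient replicate 1 lay close together, and WT stage 2 replicate 1 was far below the other libraries of its group. WT stage 3 (27.0 ± 2.43 FPKM, SD, n = 3) was 3.7-fold higher than WT stage 2 (7.3 ± 3.08 FPKM, SD, n = 3). This log2 difference of 1.83 (standard error 0.31, interval 1.07 to 2.59) passed a fold of 2 with an unadjusted limma p of 0.05 (unadjusted p = 0.00106) and missed the adjusted threshold (limma adjusted p = 0.0561). Without WT stage 2 replicate 1 the difference was 1.47 with an adjusted p = 0.0481, and without any 1 of the other 5 libraries the adjusted p lay between 0.0997 and 0.177. *Med23*-deficient stage 2 (11.7 ± 1.93 FPKM, SD, n = 3) fell short of WT stage 3 by 2.31-fold, a log2 difference of -1.15 (standard error 0.14, interval -1.49 to -0.81, limma adjusted p = 0.0230). That adjusted p was 0.0294 without *Med23*-deficient replicate 3 and between 0.0783 and 0.104 without any 1 of the other 5 libraries. From WT stage 2 it differed by 0.68 (interval -0.11 to 1.48, adjusted p = 0.583). On the same strand, *Gm28177*, a non-coding gene model, shares 29929 bases with *Stat4*, so reads could be split between them. *Gm28177* was at 4.25, 5.99 and 5.5 FPKM in WT stage 2, 7.2, 12.62 and 1.95 FPKM in WT stage 3, and 8.66, 8 and 5.3 FPKM in *Med23*-deficient stage 2, and these groups overlapped.

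Read by comparison, 2 of the 5 genes passed an adjusted p of 0.05 between the WT stages, *Il12rb2* and *Il18rap*, both higher in stage 3. Of all 20689 genes tested, 0.759% passed as higher and 0.914% as lower. A fold change of at least 2 with an unadjusted p of at most 0.05, the thresholds of the study's methods, was passed by these genes and *Stat4*, all higher, beside 1.70% (higher) and 1.90% (lower) of all genes. The median log2 difference of the 5 genes was 1.03, against -0.01 for all genes tested. Between the genotypes at stage 2, limma with adjustment called 0 of the 5 genes, and 0.0677% (higher) and 0.145% (lower) of the 20674 genes tested. An unadjusted p under 0.05 was reached by 3 of the 5, *Il18r1*, *Il18rap* and *Il12rb2*. The Ballgown-style linear model with adjustment also called 0 of the 5 genes, and 1 of all 20674 genes. At least 1976 of all 20674 genes had an unadjusted limma p under 0.05 there. Past the fold and p thresholds there was 1 gene, *Il18r1*, lower, beside 0.798% (higher) and 1.32% (lower) of all genes. Between *Med23*-deficient stage 2 and WT stage 3, 2 of the 5 were called by adjusted p, *Il18rap* and *Stat4*, both lower, where 0.705% of the 20846 genes passed as higher and 0.628% as lower. The fold and p thresholds were passed there by 4, all lower (the 2 named, *Il12rb2* and *Il18r1*), beside 1.39% (higher) and 1.48% (lower) of all genes. The 3 comparisons share libraries, so their calls are not independent of each other.

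**Figure D2:**
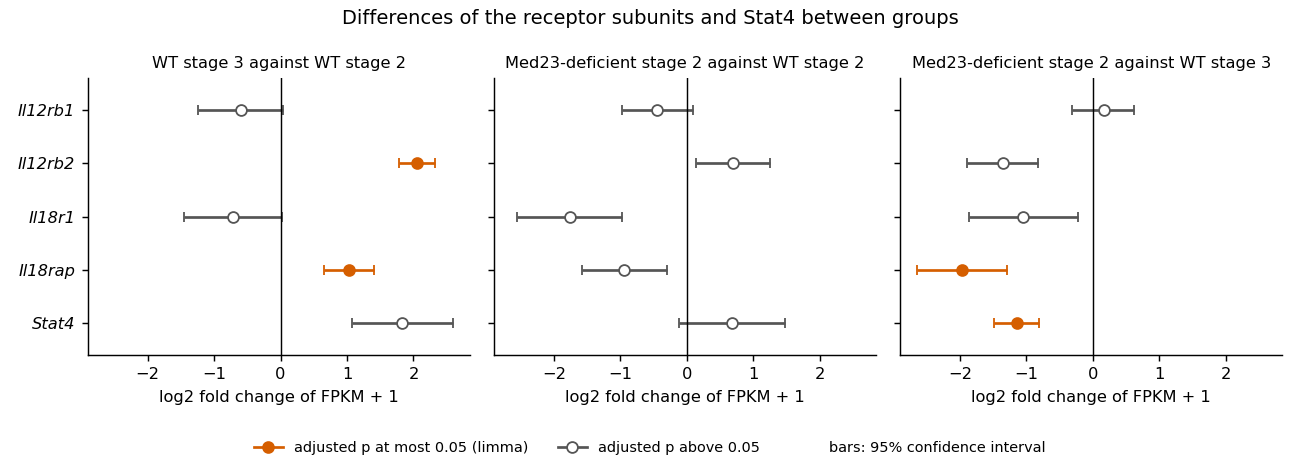
Difference in log2(FPKM + 1) of each gene in the 3 comparisons, first-named group minus second. Points are limma estimates from 6 libraries, bars their 95% confidence intervals, and filled points have an adjusted p of at most 0.05: *Il12rb2* (2.05) and *Il18rap* (1.03) between the WT stages, and *Il18rap* (-1.97) and *Stat4* (-1.15) between *Med23*-deficient stage 2 and WT stage 3.

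Because each receptor needs both of its chains, the balance of the subunits within a library was compared. The FPKM ratio of *Il12rb2* to *Il12rb1* was 0.851, 1.33 and 0.862 in WT stage 2, 5.39, 7.62 and 8.3 in WT stage 3, and 1.7, 2.1 and 3.54 in *Med23*-deficient stage 2. The chains were thus at similar levels in WT stage 2, whereas *Il12rb1* was the scarcer mRNA in all 6 other libraries. Mean log2 ratios of FPKM + 1 were -0.01 ± 0.33, 2.64 ± 0.29 and 1.13 ± 0.51 (SD, n = 3 each). WT stage 3 differed from WT stage 2 by 2.65, *Med23*-deficient from WT stage 2 by 1.14, and *Med23*-deficient stage 2 from WT stage 3 by -1.51, with no overlap of groups. For the IL-18 receptor, *Il18r1* exceeded *Il18rap* in all 9 libraries, by 4.1, 5.34 and 6.8 times in WT stage 2, 1.26, 1.65 and 1.66 times in WT stage 3, and 3.02, 3.32 and 3.02 times in *Med23*-deficient stage 2. The mean log2 ratio of *Il18rap* to *Il18r1* was -2.33 ± 0.36, -0.58 ± 0.23 and -1.5 ± 0.08 (SD, n = 3 each), and the 3 differences were 1.75, 0.82 and -0.92 in the same order. In both receptors the *Med23*-deficient libraries lay between the WT stages without overlap. Each of these 6 differences had an exact two-sided permutation p = 0.10 (adjusted p = 0.10 over the 6), the smallest that 3 libraries against 3 can give, so none can pass 0.05.

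**Figure D3:**
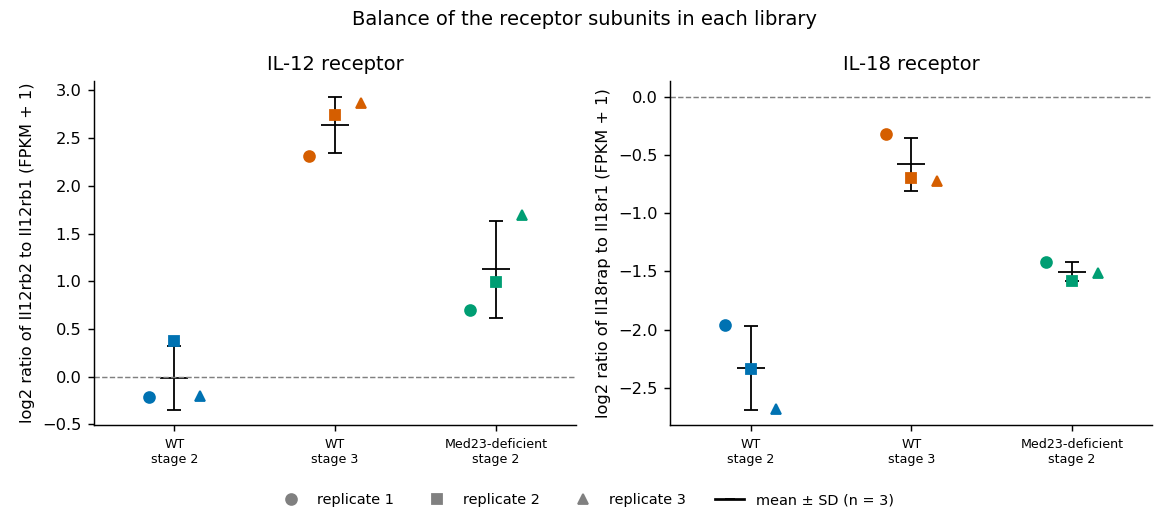
Log2 ratio of the subunits of each receptor (FPKM + 1) per library, *Il12rb2* to *Il12rb1* on the left and *Il18rap* to *Il18r1* on the right. Symbols are libraries, bars the mean and SD of 3, and the dashed line marks equal levels: *Med23*-deficient stage 2 lies between the WT stages in both panels (means 1.13 and -1.5).

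Set among the genes whose mean FPKM reached 1 in a group, *Il18r1* stood above 96.7% of them in WT stage 2, 94.0% in WT stage 3 and 86.3% in *Med23*-deficient stage 2. *Il12rb2* moved from above 70.1% in WT stage 2 to 94.5% in WT stage 3, with 83.6% in *Med23*-deficient stage 2, and *Stat4* from 57.3% to 88.7%, with 73.0%. *Il18rap* stood above 76.1%, 89.9% and 58.2%, and *Il12rb1* above 71.1%, 57.9% and 61.6%, in the same order. *Il12rb2* thus overtook the ligand-binding chain of the IL-18 receptor only in WT stage 3 replicate 1 (50.32 against 30.61 FPKM).

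The stages also differed in genes that mark iNKT subsets. Summed over 9 NKT1-like markers (among them *Tbx21*, *Ifng*, *Il2rb* and *Klrb1c*), FPKM ran from 200 to 273 in WT stage 2, 820 to 891 in WT stage 3 and 194 to 282 in *Med23*-deficient stage 2. Between the WT stages, the higher levels of *Il12rb2*, *Il18rap* and *Stat4* went together with this sum, which includes the sort gene *Klrb1c*. The sums of the stage 2 groups overlapped. Between these groups the means of *Il12rb2* and *Stat4* were higher and that of *Il18rap* was lower in *Med23*-deficient cells. None of these genes passed the adjusted test there (limma adjusted p = 0.394, 0.583 and 0.305 in that order). The 7 NKT17-like markers in the table (of 8, with *Il23r* and *Il1r1* among them) summed to 24.5 to 29.5 FPKM in WT stage 2, 0 to 2.09 FPKM in WT stage 3 and 0.1 to 1.12 FPKM in *Med23*-deficient stage 2. *Ccr6*, *Il17re* and *Sdc1* were at 0 in all WT stage 3 libraries, and *Blk*, *Ccr6* and *Il23r* in all *Med23*-deficient ones. WT stage 2, the group with the highest *Il18r1* and *Il12rb1* means, was thus also the group with these transcripts. The 7 NKT2-like markers (*Gata3*, *Il4*, *Il17rb* and others) summed to 252 to 300 FPKM in WT stage 2, 74.6 to 81.5 FPKM in WT stage 3 and 268 to 321 FPKM in *Med23*-deficient stage 2. The 4 NK cell markers in the table (of 6) summed to at most 1.6 FPKM in stage 2 of either genotype and to between 12.0 and 13.2 FPKM in WT stage 3, with *Eomes* at 0 there. Double-positive thymocyte markers (8 genes, *Cd4* among them) summed to 52.6 to 55.9, 20.3 to 30.5 and 40.2 to 63.5 FPKM. Of these, *Cd8a* reached at most 1.64 FPKM and *Rag1* at most 1.58 FPKM in any library. *Rag2* was at 0 in all WT stage 2 libraries and *Ptcra* in all *Med23*-deficient ones. The part of these populations in the receptor levels was not tested, and in bulk samples fewer cells of a type cannot be told apart from less RNA per cell.

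*Klrb1c*, which defined the sort, was at 16.34, 26.24 and 7.65 FPKM in WT stage 2, 95.09, 57.27 and 72.66 FPKM in WT stage 3, and 4.6, 2.61 and 3.04 FPKM in *Med23*-deficient stage 2. The stage 2 libraries of the genotypes therefore did not overlap in the marker of the gate itself. Its part in the differences of the receptor genes was not tested.

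Of 82 other genes of the IL-12 and IL-18 pathways, in 7 lists by role, 75 were in the table. Among the 75 tested between the WT stages, 8 were called higher and 2 lower by adjusted p (beside the 0.759% and 0.914% of all genes given above), with a median log2 difference of 0.09. Between the genotypes at stage 2, 0 of 72 were called by limma with adjustment (beside 0.0677% and 0.145% of all genes), with a median of 0.02. The Ballgown-style model called 0 of these 72 genes, and 1 of all 20674 genes. An unadjusted limma p under 0.05 was reached by 15 of the 72, beside at least 1976 of all 20674 genes. *Il23r* was called with pseudocounts of 0.1 and 0.01 and without a trend, and *Il23r* and *Il1r1* with all 9 libraries or with low genes left out. Between *Med23*-deficient stage 2 and WT stage 3, 1 of 72 was higher and 5 were lower (beside 0.705% and 0.628% of all genes), with a median of -0.10. These 6 calls were 4 to 7 with a library left out, while those of all genes fell from 278 to between 72 and 174. The Ballgown-style model called 0 of the 72, and 17 of all 20846 genes. The count of 10 between the WT stages was smaller when a library was left out. It was 6 or 5 when WT stage 2 replicate 2 or 1 was omitted, 2 when WT stage 3 replicate 1 or 2 was, and 1 when replicate 3 of either stage was. It was 5 on the TPM scale and 0 in the Ballgown-style model. Over all genes, 346 calls became 22 to 137 with a library left out. They became 224 on the TPM scale and 5 in the Ballgown-style model.

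Genes of the machinery next to the receptors were counted in lists of 10 and 15. Of all genes, 0.0677% to 0.914% passed the adjusted test per direction and comparison, and 0.798% to 1.90% the fold and p thresholds. At these shares few or no calls are expected in lists this short. None of the 10 kinases and other STAT genes of the IL-12 arm passed the adjusted test or the fold and p thresholds in any comparison by limma. An unadjusted p under 0.05 was reached by 4, 1 and 4 of them in the 3 comparisons in the order above. Of all genes, fewer than 2863 of 20689, at least 1976 of 20674 and fewer than 2146 of 20846 reached it in that order. *Jak2*, the kinase bound to IL-12Rβ2, averaged 33.0 FPKM in WT stage 2, 32.0 FPKM in WT stage 3 and 41.4 FPKM in *Med23*-deficient stage 2, where each library exceeded those of either WT group (log2 differences 0.32, adjusted p = 0.342, and 0.36, adjusted p = 0.309). *Tyk2*, the kinase of IL-12Rβ1, averaged 9.41, 11.5 and 9.11 FPKM. In the MyD88 arm below the IL-18 receptor, 0 of 15 genes passed the adjusted test in any comparison by limma. In each comparison 2 of them had an unadjusted p under 0.05, beside the numbers of all genes just given. The adaptor *Myd88* averaged 13.1 ± 0.601, 11.4 ± 5.28 and 12.1 ± 7.05 FPKM (SD, n = 3 each). Its log2 difference of *Med23*-deficient stage 2 from WT stage 3 had a wide interval (-1.21 to 1.29). *Tnfaip3*, a brake on NF-κB, was the sole gene of this arm past the fold and p thresholds, at 43.9 ± 18.5 FPKM (SD, n = 3) in WT stage 3 and 16.3 FPKM in *Med23*-deficient stage 2 (log2 difference -1.34, adjusted p = 0.293). Of the secreted proteins only 2 of 8 were in the table, and *Il18bp*, the soluble inhibitor of IL-18, averaged 1.49, 1.60 and 1.96 FPKM with all groups overlapping.

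Inhibitors of JAK-STAT signalling and the p38 arm held single calls. *Socs2*, a suppressor of cytokine signalling named here after its values were seen, rose from a mean of 0.13 FPKM in WT stage 2 to 1.19 FPKM in WT stage 3 (log2 difference 0.96, adjusted p = 0.0343), the sole call among 11 inhibitors. That call was lost with any 1 library left out (adjusted p 0.0827 to 0.131), where 346 calls over all genes became 22 to 137. *Cish*, a STAT5-induced inhibitor, averaged 2.04, 4.92 and 6.66 FPKM and passed the fold and p thresholds in WT stage 3 (log2 difference 1.03, adjusted p = 0.262) and in *Med23*-deficient stage 2 (1.27, adjusted p = 0.478), each against WT stage 2. *Mapk11*, which encodes p38β, fell from 6.46, 6.34 and 6.78 FPKM in WT stage 2 to 0.15, 0.15 and 0 FPKM in WT stage 3 (log2 difference -2.78, adjusted p = 0.00843, called in 4 of 6 fits with a library left out). It averaged 9.75 FPKM in *Med23*-deficient stage 2, 3.27 higher in log2(FPKM + 1) than in WT stage 3 (adjusted p = 0.00517). It was the sole call of the 9 genes of the p38 and GADD45 arm in either comparison.

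Receptors of the same families lie beside the members on the chromosomes. *Il23r*, the partner of *Il12rb1* in the IL-23 receptor, ends 46743 bases upstream of the start of *Il12rb2* and is read in the same direction. It was at 5.48, 3.13 and 6.36 FPKM in WT stage 2, at 1.6, 0.14 and 0 FPKM in WT stage 3 and listed at 0 in all *Med23*-deficient libraries. The log2 differences from WT stage 2 were -2.02 (adjusted p = 0.113) and -2.54 (adjusted p = 0.0511), so the neighbours *Il12rb2* and *Il23r* differed in opposite directions, although *Il23r* did not pass the adjusted test. *Il1r1*, the IL-1 receptor in the cluster that holds *Il18r1* and *Il18rap*, fell from 2.23, 4.23 and 5.01 FPKM in WT stage 2 to 0.03, 0.12 and 0 FPKM in WT stage 3 (log2 difference -2.15, adjusted p = 0.0344, called in 1 of 6 fits with a library left out). In *Med23*-deficient stage 2 it averaged 0.0633 FPKM (log2 difference from WT stage 2 -2.13, adjusted p = 0.0774). *Il1rl1*, which ends 136 bases before *Il18r1* starts and encodes the IL-33 receptor, averaged 0.203 FPKM in WT stage 2 and was listed at 0 in the other groups, and *Il1rl2* averaged 1.41, 1.03 and 1.39 FPKM. *Il23r* and *Il1r1* are also among the NKT17-like markers above.

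Genes known to be induced by IL-12, IL-18 or STAT4 held most of the calls. Of the 19 in the table (of 20), 7 rose in WT stage 3 against WT stage 2 by adjusted p and 0 fell (0.759% and 0.914% of all genes), and the median log2 difference was 0.87 (-0.01 for all genes). These 7 became 5 when WT stage 2 replicate 2 was left out, 3 when WT stage 2 replicate 1 was, and 1 with any other of the 6 libraries left out. They were 2 on the TPM scale and 0 in the Ballgown-style model. For all genes, 346 calls became 22 to 137 with a library left out. Those calls were 224 on the TPM scale and 5 in the Ballgown-style model. The adjusted test called 0 of 17 between the genotypes at stage 2 (median 0.17). An unadjusted limma p under 0.05 was reached there by 5 of the 17, and by at least 1976 of all 20674 genes. By adjusted p, 5 of 18 were lower in *Med23*-deficient stage 2 than in WT stage 3 (0.628% of all genes, median -0.63, against 0 for all genes). These 5 became 3 when *Med23*-deficient replicate 1 or 2 or WT stage 3 replicate 2 or 3 was left out, and 0 in the Ballgown-style model. The calls over all genes fell from 278 to between 72 and 174 with a library left out, and to 17 in the Ballgown-style model. Of the list, *Ifng*, *Tbx21*, *Ccl5* and *Xcl1* are also NKT1-like markers, and *Eomes* is in the NK cell list. The list was put together with earlier results of these data known, so its direction is not independent evidence.

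*Ifng*, the cytokine that IL-12 and IL-18 induce together, rose from 1.97, 5.89 and 2.07 FPKM in WT stage 2 to 25.29, 42.3 and 23.57 FPKM in WT stage 3 (log2 difference 2.93, standard error 0.40, adjusted p = 0.0343). It averaged 3.59 FPKM in *Med23*-deficient stage 2, 0.17 above WT stage 2 (interval -0.85 to 1.19) and 2.76 below WT stage 3 on the log2 scale (adjusted p = 0.0178). Of the cytotoxic genes, *Gzmb* (granzyme B) rose 14.6-fold from 12.0 to 175 FPKM (adjusted p = 0.00368), and *Prf1* (perforin) 6.31-fold from 2.60 to 16.4 FPKM (adjusted p = 0.0160). In *Med23*-deficient stage 2 they averaged 6.25 and 0.567 FPKM, with each library below each WT stage 2 library (adjusted p = 0.301 and 0.23). The chemokine genes *Ccl5* (7.39 to 32.8 FPKM, adjusted p = 0.0481) and *Xcl1* (11.7 to 63.9 FPKM, adjusted p = 0.0381), the death ligand *Fasl* (15.3 to 59.1 FPKM, adjusted p = 0.0399) and the transcription factor *Runx3* (42.1 to 77.0 FPKM, adjusted p = 0.0399) rose as well between the WT stages. When libraries were left out in turn, the calls of *Gzmb* held in 6 of 6 fits, of *Prf1* in 2, of *Ifng*, *Xcl1*, *Fasl* and *Runx3* in 1 each (adjusted p up to 0.135), and of *Ccl5* in 0 (adjusted p 0.0559 to 0.141). *Ccl5* at 4.46 FPKM and *Xcl1* at 14.7 FPKM were lower in *Med23*-deficient stage 2 than in WT stage 3 (adjusted p = 0.00844 and 0.0161). In that comparison the calls of *Gzmb*, *Prf1* and *Ccl5* held in 6 of 6 fits with a library left out, of *Xcl1* in 2 and of *Ifng* in 1. *Fasl* (22.7 FPKM) and *Runx3* (53.6 FPKM) were lower there too, without passing the adjusted test (adjusted p = 0.161 and 0.0553).

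*Tbx21*, which encodes T-bet, the lineage factor that raises *Il12rb2* in T helper 1 cells, averaged 29.4 FPKM in WT stage 2, 73.2 FPKM in WT stage 3 and 38.9 FPKM in *Med23*-deficient stage 2. The WT stages did not overlap (log2 difference 1.31, adjusted p = 0.0742), and the stage 2 groups did. *Cd69*, an early activation marker, averaged 3.27, 11.0 and 7.06 FPKM, with log2 differences of 1.5 (adjusted p = 0.135) and 0.90 (adjusted p = 0.554) from WT stage 2. *Il2ra*, the high-affinity IL-2 receptor chain, averaged 1.16 FPKM in WT stage 2, 0.653 FPKM in WT stage 3 and 4.54 FPKM in *Med23*-deficient stage 2. Its log2 difference was -0.38 between the WT stages (adjusted p = 0.513), where the list median was 0.87. It was 1.71 between *Med23*-deficient stage 2 and WT stage 3 (adjusted p = 0.0697), where the median was -0.63. Between the stage 2 groups it was 1.33 (adjusted p = 0.206), in the direction of the median of 0.17.

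**Figure D4:**
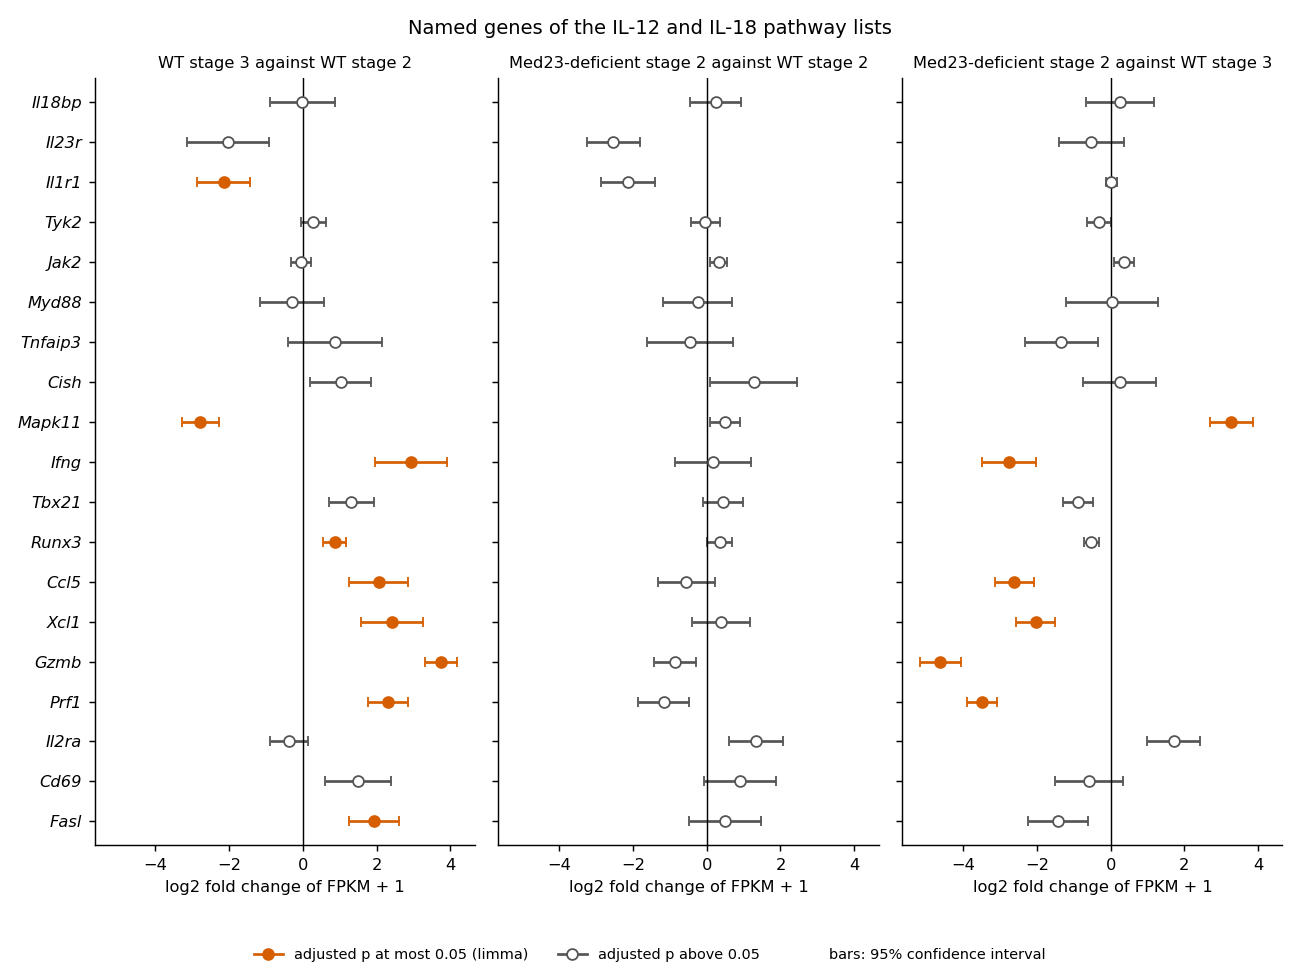
Difference in log2(FPKM + 1) of 19 named genes of the pathway lists in the 3 comparisons, with 95% confidence intervals from limma. From top to bottom stand an inhibitor of the ligand, related receptors, signalling genes, inhibitors and target genes. Apart from *Ifng* and *Tbx21*, target genes are drawn only if called by either rule in some comparison. Their distance from 0 is thus partly fixed by that choice, and target genes without a call are not shown. Filled points have an adjusted p of at most 0.05: most target genes drawn lie right of 0 between the WT stages (*Ifng* 2.93) and left of 0 between *Med23*-deficient stage 2 and WT stage 3 (-2.76), while no point is filled between the stage 2 groups.

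Over the 9 libraries, the levels of *Il12rb2* and *Stat4* were the most alike among the 5 genes (Pearson r = 0.941 of log2(FPKM + 1)). *Il18r1* and *Il18rap*, neighbours on the chromosome, had r = 0.606, and *Il12rb1* was negatively related to *Il12rb2* (-0.612) and to *Stat4* (-0.629). These values, given without a test, carry the differences between the 3 groups, and the points share the sort and the scaling of each library. Among the 5689 genes whose mean FPKM reached 5, the closest to *Il12rb2* were *Apobr* (0.974), *Zfp683* (0.97) and *Ifngr1* (0.97). *Ifngr1*, a chain of the interferon γ receptor, averaged 25.0 FPKM in WT stage 2, 106 FPKM in WT stage 3 and 30.6 FPKM in *Med23*-deficient stage 2, and *Zfp683*, which encodes the transcription factor Hobit, 47.4, 112 and 68.1 FPKM. Closest to *Stat4* were *Peg13* (0.968), *Serpinb9* (0.968), an inhibitor of granzyme B, and *Dtx1* (0.965). *Serpinb9* averaged 5.87, 21.3 and 9.79 FPKM. *Il18rap* was followed most closely by *Ostf1*, *Ccdc102a* and *Galnt2* (0.974 each), of which *Ccdc102a* averaged 13.6, 25.4 and 8.71 FPKM. Nearest to *Il18r1* came *Atg101* (0.95), *Hist1h2bb* (0.946) and *Dusp11* (0.946). *Hist1h2bb*, a replication-dependent histone gene, averaged 27.0, 9.89 and 3.42 FPKM. *Il12rb1* was most like *Wars* (0.938), *Gtf2i* (0.933) and *Hist1h4f* (0.928).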

How the data were processed

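The authors sequenced 9 libraries made with a stranded kit for total RNA at low input. Per the study's methods and the submitters' processing notes, adapters were trimmed with Trimmomatic 0.36, reads were aligned to mm10 with HISAT2, reads at no more than 2 loci were kept, and GENCODE vM12 genes were quantified with StringTie. The authors deposited FPKM, rounded to 2 decimals, with replicates apart. No counts were used, so the depth could not be computed, nor an interval for counting error.

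Here log2(FPKM + 1) was tested with limma 3.58.1 (R 4.3.3, lmFit and eBayes with a trend, 2-sided) on the 6 libraries of a comparison and all genes above 0 in at least 1 of them, with Benjamini-Hochberg adjustment over all of these. Fold changes on this scale understate the change of low genes. Genes were also counted by the study's thresholds, a fold of 2 or more with p of 0.05 or less before adjustment. Its own tool, Ballgown, was imitated by ordinary linear models with 1 covariate per library. That covariate was the sum of log2(FPKM + 1) over values up to the upper quartile of the library's non-zero values. Subunit ratios were compared by an exact permutation test. The code was tested on simulated data. Python 3.11.15, pandas 2.3.3, scipy 1.17.1 and matplotlib 3.10.9 were used for tables and plots.

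The genes, pathway lists, marker lists and tests were chosen with earlier results of these data known. Named pathway genes were those with a call by either rule and a mean FPKM of at least 1, with *Tyk2*, *Jak2*, *Myd88*, *Il18bp*, *Ifng* and *Tbx21* in any case, and, for each receptor gene and *Stat4*, the 3 most correlated genes and neighbours on the chromosome. The alternatives were pseudocounts of 0.1 and 0.01, only genes averaging an FPKM of 1 or more, scaling to TPM, scaling to a shared upper quartile, limma without a trend, the Ballgown-style model, all 9 libraries together, a replicate block and each library left out. A TPM scale without *Gm23935* was added after seeing the data.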

Additional observations from a re-analysis of the deposited data

How the results depend on the processing

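No log2 difference of the 5 genes changed sign in any alternative. Of their 240 values under alternatives, 199 kept direction and side of the adjusted threshold, 13 gained a call and 28 lost one. Between the WT stages, the count of 2 genes called by adjusted p became 3 with pseudocounts of 0.1 and 0.01, with low genes left out and with a common upper quartile, 1 on the TPM scale, 1 with a replicate block and 0 in the Ballgown-style model, and was 1 to 2 with 1 library left out. With all 9 libraries, and without WT stage 2 replicate 1, the 2 were *Il12rb2* and *Stat4*. *Il12rb2* kept its call in 15 of 16 alternatives (log2 differences 1.96 to 2.16), the exception being the Ballgown-style model (adjusted p = 0.16). *Stat4* and *Il18rap* were each called in 6 of 16. Between the genotypes at stage 2, the count of 0 became 1 (*Il18r1*) when only genes averaging an FPKM of 1 or more were fitted. The count of 1 past the fold and p thresholds became 2 with pseudocounts of 0.1 and 0.01, on the TPM scale and in the Ballgown-style model, and was 1 to 2 with 1 library left out. Against WT stage 3, the count of 2 genes called by adjusted p became 3 with both smaller pseudocounts, with low genes left out and on the TPM scale without *Gm23935*, 1 with a common upper quartile, 1 without a trend, 0 in the Ballgown-style model and 0 with the replicate block, and 0 to 3 with 1 library left out, the 3 being without *Med23*-deficient replicate 3. With all 9 libraries it stayed 2, but *Stat4* lost its call (adjusted p = 0.13) and *Il12rb2* gained one (0.0157). Over all genes, the 346, 44 and 278 calls in the 3 comparisons in that order became 5, 1 and 17 in the Ballgown-style model. With the replicate block they became 19, 0 and 42. With 1 library left out they became 22 to 137, 1 to 8 and 72 to 174. The cause of these changes was not tested. The subunit ratios kept their direction in all alternatives run.

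Same-numbered libraries correlated at 0.00 to 0.27 in their deviations from the group means, not all above 0.1. Between the WT stages each stage 3 library correlated best with its own number (0.08, 0.03 and 0.16, against at best 0.03, 0.0 and -0.06 with another number). Replicate 3 did so in all 3 comparisons, whereas replicates 1 and 2 of *Med23*-deficient stage 2 did not. The labels do not pair the libraries, so the main fits used no pairs, and the replicate block was run as an alternative. With the replicate block *Il12rb2* kept its call between the WT stages (adjusted p = 0.0439). The block took the pathway genes called from 10 to 2 between the WT stages and from 6 to 2 between *Med23*-deficient stage 2 and WT stage 3, and left them at 0 between the genotypes at stage 2. It took the calls over all genes from 346 to 19, from 278 to 42 and from 44 to 0 in the same order. No gene of any list was thus called between the genotypes with the block. On the TPM scale the median log2 difference of genes averaging an FPKM of 1 or more was -0.136, -0.158 and -0.025 in the 3 comparisons, against -0.051, -0.05 and -0.001 on the FPKM scale. Rare transcripts cannot be weighed here, as depth is unknown.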
